A study of Rattus norvegicus with 6 samples.

Results

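The genes described here are the regulators of skeletal muscle formation, the membrane proteins of myoblast fusion, and 3 genes of differentiated muscle. The list has 10 genes, in 4 roles: the myogenic regulatory factors Myod1, Myf5, Myog and Myf6, the precursor factor Pax7, the fusion proteins Mymk and Mymx, and the muscle genes Ckm, Chrna1 and Des. A gene was taken from the row that carries its name. Of the 10, 7 had a row among the 18077 rows of each count table, each name on 1 row. Myf5, Myf6 and Pax7 were not analysed here. The list was chosen by its members' CPM in these libraries, that is, with the Ad-RNF128 and Ad-GFP values already known. The group values of its members are therefore a description, and the fitted changes given for them below are not read as tests.

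RNA was sequenced from 6 libraries of cultures described as neonatal rat cardiomyocytes, the contracting muscle cells of the newborn heart, prepared from pups aged 1 to 3 days. Fibroblasts were reduced by pre-plating and with BrdU, all cultures received palmitic acid, a saturated fatty acid (500 µM, 24 h), and RNA was taken after 48 h. The 3 control libraries are labelled Ad-GFP, an adenovirus with green fluorescent protein and a treatment given as WT. The other 3 are labelled Ad-RNF128, an adenovirus for overexpression of the ubiquitin ligase RNF128 (the treatment text writes the name once as RNF28). The design asks which genes differ when RNF128 is overexpressed. The sources used here give no promoter for the vectors and no number of animals per library. They also do not say that replicates are separate cultures, so every p-value covers no more than the spread between these libraries, part of which could be technical.

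Myod1 and Myf5 commit precursor cells to the muscle fate, and Myog, which acts after them, switches on differentiation. All 4 myogenic regulatory factors are basic helix-loop-helix proteins that bind E-boxes, short DNA sites of the form CANNTG, together with the products of E-protein genes such as Tcf3 and Tcf12. Pax7 marks satellite cells, the stem cells of skeletal muscle. Mymk (myomaker) and Mymx (myomixer, also called myomerger) are membrane proteins through which myoblasts fuse into multinucleate fibres. Heart muscle cells do not fuse in this way and are built without the myogenic regulatory factors, while Des and Ckm are genes of both heart and skeletal muscle.

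The RefSeq promoter table (build GRCr8) held 8 of the 10 members by symbol, and the 250 bases before the start are shown for 4 of them. Myog and Des are shown because, against Ad-GFP replicates 2 and 3, their levels differed most among the members, in opposite directions, and Ckm and Chrna1 because they are known targets of the myogenic factors that had few reads here. Sequences are written 5′ to 3′ and capitals mark each CANNTG match.
Myog (chr13:48297226-48297475, + strand): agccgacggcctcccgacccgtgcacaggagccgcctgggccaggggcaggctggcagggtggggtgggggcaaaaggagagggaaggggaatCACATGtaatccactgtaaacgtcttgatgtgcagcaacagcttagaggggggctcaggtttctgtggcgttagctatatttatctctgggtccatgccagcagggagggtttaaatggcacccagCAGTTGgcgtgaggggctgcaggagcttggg
Des (chr9:84299376-84299625, + strand): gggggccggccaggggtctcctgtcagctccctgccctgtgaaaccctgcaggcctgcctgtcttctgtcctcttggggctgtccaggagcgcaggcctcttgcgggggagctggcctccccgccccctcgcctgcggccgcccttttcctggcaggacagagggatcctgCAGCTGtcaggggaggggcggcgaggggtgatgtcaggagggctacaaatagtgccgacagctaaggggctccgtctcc
Ckm (chr1:88189211-88189460, + strand): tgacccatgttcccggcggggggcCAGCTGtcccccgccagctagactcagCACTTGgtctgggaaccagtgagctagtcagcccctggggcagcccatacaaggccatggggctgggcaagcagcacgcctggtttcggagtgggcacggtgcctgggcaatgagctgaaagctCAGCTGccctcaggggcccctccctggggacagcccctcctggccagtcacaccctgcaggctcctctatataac
Chrna1 (chr3:78877354-78877603, - strand): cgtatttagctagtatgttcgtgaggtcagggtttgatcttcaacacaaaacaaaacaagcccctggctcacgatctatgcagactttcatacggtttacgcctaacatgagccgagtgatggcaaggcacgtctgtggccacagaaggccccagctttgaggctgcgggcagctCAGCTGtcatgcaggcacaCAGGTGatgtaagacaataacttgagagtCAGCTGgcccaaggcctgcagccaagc
The Myog window held 2 matches, CACATG at 157 to 152 and CAGTTG at 31 to 26 bases before the start. In the Des window 1 match was found, CAGCTG at 79 to 74 bases before the start. Ckm and Chrna1 held 3 matches each, of which 2 each were CAGCTG, a form that is part of CANNTG and is counted in it. CANNTG and CAGCTG read the same on both strands, so a search of 1 strand covers both. Of 33469 windows of the same length in the table, 65.5% held at least 1 CANNTG, 30.8% at least 2 and 11.55% at least 3, while 12.0% held a CAGCTG and 1.04% at least 2. CTA and TAG with any 4 bases between them, a pattern looser than the site bound by MEF2 factors, also reads the same on both strands. It occurred in the Des window, as CTACAAATAG at 37 to 28 bases before the start, and in 3.41% of all windows. Because the pattern is loose, the Des match is not called a MEF2 site. A match describes the letters and does not show binding.

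Several properties of the libraries bear on these genes. Totals ran from 16352844 to 21708973 counts. Of the targeted gene Rnf128 the controls held 0, 2 and 1 reads and the libraries labelled Ad-RNF128 held 1, 3 and 1, so the counts of the rat gene do not bear out the label, and every direction below is between libraries so labelled. Ad-GFP replicate 1 stood apart, with Spearman correlations of 0.776 to 0.818 to the other 5 libraries and 3551 rows without a read, against 1190 to 2288. Results are therefore given with and without it. Heart muscle markers did not move together. The summed level of the 18 listed cardiomyocyte markers with a row came to 305, 497 and 491 CPM (counts per 1000000 counts of the library) across Ad-GFP replicates 1 to 3, against 239.95, 202 and 148 CPM across Ad-RNF128 replicates 1 to 3. That order rests on Tnnt2, the cardiac troponin T gene, with 13.3, 342 and 350.4 CPM in the controls, against 57.4, 42.3 and 34.0 CPM under Ad-RNF128. Without it the other 17 summed to 292, 155 and 141 CPM for the controls and 183, 159 and 114 CPM for Ad-RNF128, a sum added after these values were seen. The heart transcription factor genes Nkx2-5, Gata4 and Hand2 were each higher in all 3 libraries labelled Ad-RNF128 than in Ad-GFP replicates 2 and 3, and highest in Ad-GFP replicate 1. Tbx5, also a heart transcription factor gene of the list, did not share this order. It had 0.428, 1.27 and 1.64 CPM in the controls and 1.52, 1.38 and 1.51 CPM in Ad-RNF128. Myh6, the main heart myosin of the rat, had 262, 242, 237, 244 and 235 counts in the first 5 libraries and 2 in Ad-RNF128 replicate 3. In that library 11 of the 18 had fewer than 10 counts, and the natriuretic peptide gene Nppa had 0.

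Markers of other cell types were present, and the smooth muscle and fibroblast sums exceeded the cardiomyocyte sum in every library. Sums over different genes do not give shares of cells. Smooth muscle markers (5 of 5 with a row, led by Acta2 and Tagln) summed to between 4827 and 6026 CPM over the 6 libraries. They did not move together. Myh11 had 0.795, 7.42 and 9.09 CPM in the controls and 27.0, 27.4 and 28.1 CPM in Ad-RNF128. Against Ad-GFP replicates 2 and 3, Tagln and Cnn1 were also higher in Ad-RNF128, and Acta2 and Smtn lower. Fibroblast markers (9 of 9 with a row) summed to 3243 CPM in Ad-GFP replicate 1 and 38416 and 40049 CPM in replicates 2 and 3. In Ad-RNF128 the sum was between 10538 and 11450 CPM. The collagen genes Col1a1, Col1a2 and Col3a1 made up most of each sum, and Postn shared their order. Thy1 went the other way, at 224 and 251 CPM in Ad-GFP replicates 2 and 3 and between 287 and 305 CPM in Ad-RNF128. Pdgfra, Dcn and Lum had at most 55 reads in any library, and the fibroblast factor gene Tcf21 at most 1. Skeletal muscle fibre markers (15 of 16 with a row) summed to 76.8, 373 and 410 CPM for the controls and 215, 194 and 197 CPM for Ad-RNF128, and 5 of them were at 0 in Ad-GFP replicate 1. Myh4 and Tnnc2 together made up most of each sum. Among the fibre markers Myh2, a fast fibre myosin gene, had 0, 337 and 493 reads in the controls and 13, 14 and 13 under Ad-RNF128. Others went the other way. Mybpc1 had 2, 6 and 6 reads in the controls and 21, 15 and 21 under Ad-RNF128, and Actn3 had 16, 6 and 7 against 18, 26 and 28. The 5 listed myoblast markers with a row, Myod1, Myog, Cdh15, Chrna1 and Mymk, summed to 302, 508 and 508 CPM for the controls and 184, 198 and 201 CPM for Ad-RNF128. All of them but Cdh15 are members, so this sum is not separate from the members' own levels. Most of it is Cdh15, with 226, 423 and 420 CPM in the controls and 145, 156 and 159 CPM in Ad-RNF128. Mymk was higher in Ad-RNF128 than in Ad-GFP replicates 2 and 3. Endothelial markers (6 of 6) stayed between 4.69 and 7.84 CPM and leukocyte markers (5 of 5) between 16.5 and 34.2 CPM. Most of the leukocyte sum was Cd14. Csf1r had 4, 7 and 10 reads in Ad-GFP and 38, 58 and 38 in Ad-RNF128, and Cd68 had 6, 4 and 8 against 12, 24 and 17. The pan-leukocyte gene Ptprc had 0 reads in Ad-GFP and 0, 2 and 3 in Ad-RNF128. The part of these differences in the members' levels was not tested. In such bulk libraries, fewer cells of a type and less RNA per cell cannot be told apart.

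Myod1 (ENSRNOG00000011306) was lower in the libraries labelled Ad-RNF128. Its level was 63.3, 50.5 and 50.5 CPM in Ad-GFP replicates 1, 2 and 3, and 25.3, 32.7 and 31.0 CPM in Ad-RNF128 replicates 1, 2 and 3. All 3 controls lay above all 3 libraries labelled Ad-RNF128. The mean was 54.8 ± 7.37 CPM (SD, n = 3) in Ad-GFP and 29.6 ± 3.88 CPM (SD, n = 3) in Ad-RNF128, a ratio of 1.85. Myod1 was thus the member whose groups did not overlap whether or not Ad-GFP replicate 1 was counted. That library was closest to the other controls for Myod1. On the log2(CPM + 0.5) scale Ad-GFP replicate 1 differed from the mean of replicates 2 and 3 by 0.32 for Myod1, against a median of 2.21 over the 12036 genes with a mean of at least 1 CPM. The same difference was 0.46 for Ckm, 0.49 for Mymx and 0.96 for Chrna1, which had few reads, and 3.00 for Myog, 2.10 for Mymk and 3.61 for Des.

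Myog (ENSRNOG00000030743), the differentiation factor, separated Ad-GFP replicates 2 and 3 from everything else. It stood at 3.85 CPM in Ad-GFP replicate 1, 33.0 and 35.4 CPM in replicates 2 and 3, and 7.43, 4.88 and 6.54 CPM in Ad-RNF128. The libraries labelled Ad-RNF128 were below both of those controls and above Ad-GFP replicate 1, which was the lowest of the 6. Against replicates 2 and 3 alone the mean was 5.44-fold lower in Ad-RNF128 (6.28 ± 1.29 CPM, SD, n = 3). Against all 3 controls it was 3.83-fold lower, with a control SD of 17.6 CPM around a mean of 24.1 CPM, and the groups overlapped.

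**Figure D1:**
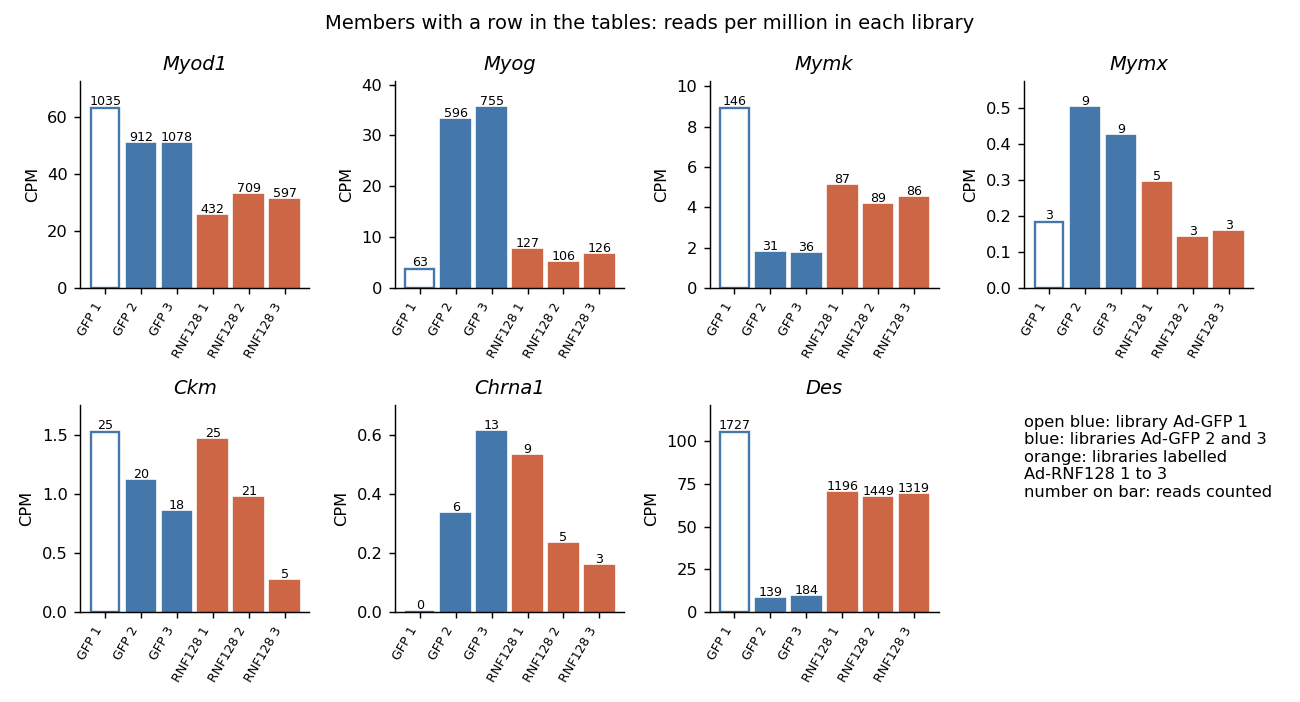
CPM (vertical axis, from 0, a separate scale in each panel) of the 7 members in each of the 6 libraries, with the number of reads on each bar. Ad-GFP replicate 1 (open bar) lies below every other library for Myog and above every other library for Mymk and Des, while for Myod1 all blue bars exceed all orange ones.

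The balance of the 2 factors within a library needs no scaling between libraries. Ad-GFP replicates 2 and 3 had 65.4 and 70.0 Myog reads per 100 Myod1 reads (95% exact binomial counting intervals 58.8 to 72.5 and 63.7 to 76.9). Ad-RNF128 replicates 1, 2 and 3 had 29.4 (23.9 to 35.9), 15.0 (12.1 to 18.4) and 21.1 (17.3 to 25.6), so they differed among themselves by more than counting error between replicates 1 and 2, whose intervals do not meet. Ad-GFP replicate 1 had 6.09 (4.64 to 7.85), below all of them. These intervals cover counting error only. Relative to Myod1, Myog reads in the libraries labelled Ad-RNF128 were thus fewer than in Ad-GFP replicates 2 and 3 and more than in Ad-GFP replicate 1.

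**Figure D2:**
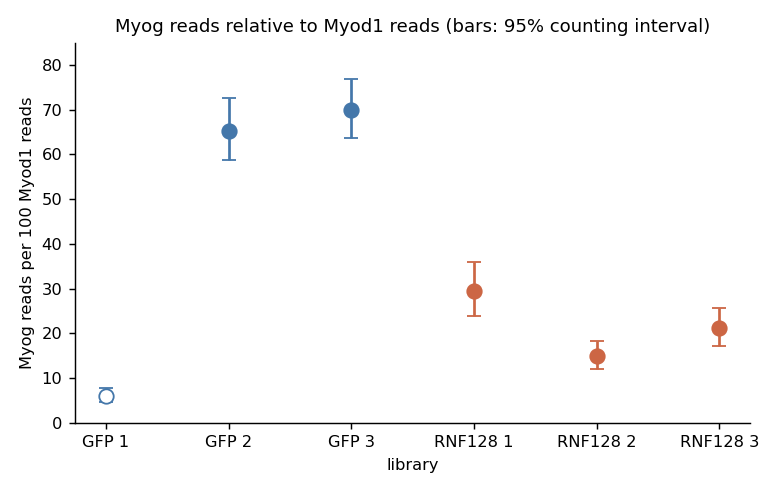
Myog reads per 100 Myod1 reads (vertical axis) in each library (horizontal axis), with 95% exact counting intervals as bars. Ad-GFP replicates 2 and 3 sit at 65.4 and 70.0, the libraries labelled Ad-RNF128 between 15.0 and 29.4, and Ad-GFP replicate 1 (open point) at 6.09.

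The fusion gene Mymk ran opposite to Myog in these libraries. Mymk (ENSRNOG00000006142) was at 8.93 CPM in Ad-GFP replicate 1, 1.72 and 1.69 CPM in replicates 2 and 3, and 5.09, 4.10 and 4.47 CPM in Ad-RNF128. It was highest in Ad-GFP replicate 1, lowest in the other 2 controls, and between them in all 3 libraries labelled Ad-RNF128. The Ad-RNF128 mean of 4.55 ± 0.50 CPM (SD, n = 3) was 2.67 times that of Ad-GFP replicates 2 and 3, and 1.11 times that of all 3 controls. Mymx (ENSRNOG00000042497), its partner in fusion, was near the limit of these libraries, with 3, 9 and 9 reads in Ad-GFP and 5, 3 and 3 in Ad-RNF128. Pooled over libraries, the rate in Ad-RNF128 was 0.503 of that in the 3 controls, with a 95% counting interval of 0.219 to 1.09, and 0.415 (0.177 to 0.927) of that in Ad-GFP replicates 2 and 3. Both intervals cover counting error only and leave out the spread between libraries, so whether Mymx changed is not read from them.

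Of the genes of differentiated muscle, Des (ENSRNOG00000019810), which encodes the intermediate filament protein desmin, had the widest range. It was at 106 CPM in Ad-GFP replicate 1, 7.70 and 8.63 CPM in replicates 2 and 3, and 69.9, 66.7 and 68.5 CPM in Ad-RNF128. The 3 libraries labelled Ad-RNF128 had a CV of 2.34%, with a mean 8.38-fold above Ad-GFP replicates 2 and 3 and below replicate 1. Over all 3 controls the ratio was 1.68, with a control SD of 56.3 CPM around a mean of 40.6 CPM. Des and Mymk thus shared their order of libraries: Ad-GFP replicate 1 above all of Ad-RNF128, and these above Ad-GFP replicates 2 and 3.

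Ckm (ENSRNOG00000016837), the muscle form of creatine kinase, and Chrna1 (ENSRNOG00000018286), the alpha subunit of the muscle acetylcholine receptor, had few reads. Chrna1 had 0, 6 and 13 reads in Ad-GFP and 9, 5 and 3 in Ad-RNF128, and the 0 in Ad-GFP replicate 1 allows up to 0.183 CPM (3 counts). Its pooled rate in Ad-RNF128 was 0.859 (95% counting interval 0.419 to 1.75) of that in the 3 controls. Ckm had 25, 20 and 18 reads in Ad-GFP and 25, 21 and 5 in Ad-RNF128, or 1.53, 1.11 and 0.844 CPM against 1.46, 0.967 and 0.260 CPM. The groups overlapped, and the low value is that of Ad-RNF128 replicate 3, the library with 2 Myh6 reads.

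The Ckm counts had a pattern shared with heart genes. By a search chosen after these values were seen, 12 of the 18077 rows had at least 10 counts in each of 5 libraries, counts within 1.5-fold of one another there, and, in Ad-RNF128 replicate 3, a count that was at most the lowest of them divided by 3. Ckm was 1 of the 12, and 8 others are in the cardiomyocyte list: Actc1, Mybpc3, Myh6, Myh7, Myl2, Myl3, Nppa and Tnni3. The remaining 3 were Mb (myoglobin), Xirp2 and Dpt. In the 5 libraries each count lay between 80.5% and 121% of the gene's own mean over them, and in Ad-RNF128 replicate 3 it was between 0% and 22.9% of it. The search itself requires like counts in the 5 libraries and a low count in Ad-RNF128 replicate 3. Of all rows, 444 met its conditions on the 5 libraries. The totals of these libraries differed. The same search with another library as the low one gave 0 genes for Ad-RNF128 replicate 1, Ad-RNF128 replicate 2 and Ad-GFP replicate 3, 1 for Ad-GFP replicate 2, and 3356 for Ad-GFP replicate 1.

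**Figure D3:**
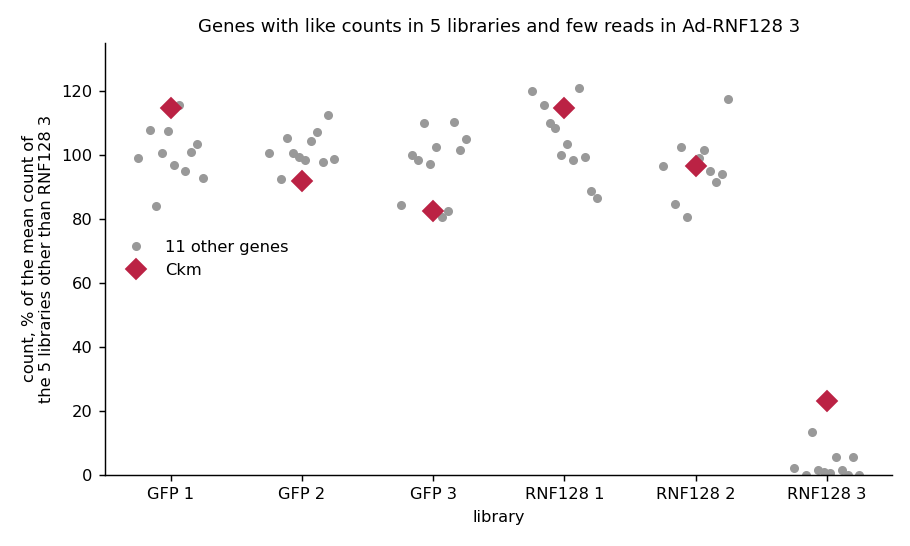
Count of Ckm (diamonds) and of the 11 other genes found by the same search (grey points) in each library, as a percentage of the gene's mean count over the 5 libraries other than Ad-RNF128 replicate 3. The points lie between 80.5% and 121% in 5 libraries and at or below 22.9% in Ad-RNF128 replicate 3, as the search requires.

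Model fits over all genes put these levels on a common scale. In edgeR's quasi-likelihood fit of all 6 libraries, 5 of the 7 members had enough reads to be fitted (not Mymx and Chrna1). Of the 12863 genes tested, 0% were past an adjusted p of 0.05. At an unadjusted p under 0.05 there were 742 genes, and DESeq2 called 386 genes and limma-voom 14. The log2 change (Ad-RNF128 minus Ad-GFP, ± SE) was -1.64 ± 0.55 for Myod1, -2.20 ± 0.62 for Myog, -0.96 ± 1.06 for Mymk, -1.14 ± 0.83 for Ckm and -0.50 ± 1.35 for Des. The signs for Mymk and Des were not stable. TMM gave Ad-GFP replicate 1 a factor of 0.47, and with library totals alone the values were 0.15 and 0.75. In CPM, 1 member (Myod1) had groups that did not overlap, with Ad-RNF128 lower, as had 3.59% of all genes tested. In either direction 34% of all genes did so.

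Without Ad-GFP replicate 1 the fit held 13173 genes, among them 6 members (not Mymx). The log2 change was -0.92 ± 0.09 for Myod1, -2.61 ± 0.13 for Myog, 1.26 ± 0.21 for Mymk and 2.91 ± 0.09 for Des. Of all genes tested, 28.9% were called higher and 28% lower. The log2 change was -0.29 ± 0.47 for Ckm and -0.85 ± 0.57 for Chrna1, and Ckm was at 0.16 when Ad-RNF128 replicate 3 was also left out. In CPM the groups did not overlap for 2 fitted members with Ad-RNF128 higher and 2 with it lower, against 48.7% and 23.6% of all genes tested, 72.3% in either direction. Since the members were listed with this contrast known, nothing is read from these counts.

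Genes that act with the members were tested in 7 lists, chosen with earlier results of these data known. All their calls rest on leaving out Ad-GFP replicate 1, where 56.9% of all genes tested passed and the median log2 change of all genes was 0.01. By direction, 28.9% of all genes tested were called higher and 28% lower. With all 6 libraries 0 genes of any list passed in edgeR. Calls are given as scaled with TMM. With library totals alone the median of all genes moved to 0.17, and all calls split into 5367 higher and 2409 lower, in place of 3812 and 3689.

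Transcription factors that work with the myogenic factors fell more often than they rose. Of 24 tested, 15 fell and 4 rose (11 and 6 with library totals alone), with a median log2 change of -0.29. Tead4, a factor that binds muscle gene promoters, was at 16.6 and 16.7 CPM in Ad-GFP replicates 2 and 3 against a mean of 6.75 ± 0.40 CPM (SD, n = 3) for Ad-RNF128 (log2 change -1.46 ± 0.12, edgeR adjusted p = 6.44e-08). Eya4, a transcriptional coactivator, fell by 1.29 and Eya1, of the same family, by 0.73 on the log2 scale. Ad-GFP replicate 1 held them at 1.83, 0.67 and 3.36 CPM, below all other libraries, so for these genes the groups overlapped when it was counted.

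Inhibitors of myogenic differentiation rose in 8 of 27 cases and fell in 8, with a median log2 change of 0.04 (10 and 7, with a median of 0.19, with library totals alone). The 59.3% called is near the 56.9% of all genes tested, so nothing is read from these counts. Several belong to the Notch pathway, which keeps muscle precursors undifferentiated. The receptor gene Notch3 stood at 33.5, 31.5 and 41.7 CPM in the controls, against a mean of 15.9 ± 1.43 CPM (SD, n = 3) for Ad-RNF128, with no overlap over all 6 libraries (log2 change -1.37 ± 0.12 without Ad-GFP replicate 1, edgeR adjusted p = 2.10e-07). Notch1, another receptor gene, fell by 0.92 on the log2 scale. Picked after their values were seen, the receptor gene Notch2 fell by 0.53 and the ligand gene Jag1 by 0.73, the target gene Hes1 rose by 0.34, and the ligand gene Dll1 (-0.39) did not pass. Ad-GFP replicate 1 held Notch1, Notch2 and Jag1 at 12.2, 12.9 and 1.65 CPM, below all other libraries. Their groups therefore overlapped when it was counted, and their log2 changes over all 6 libraries were -0.72, -0.06 and -0.19. Rbpj, the DNA-binding factor of the pathway, rose, with a log2 change of 0.96 ± 0.06. Its level was 5.20, 147 and 140 CPM in the controls and between 304 and 315 CPM in Ad-RNF128.

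Of 15 muscle precursor genes with a row, 9 had enough reads to be tested. Of these 5 rose and 2 fell, and the median log2 change was 0.44. That median is the value of Itga7, whose log2 change over all 6 libraries was -0.62. The 2 that fell were Met, given below, and Fgfr4 (-2.11), which had at most 14 reads in any library. Ncam1, a cell adhesion molecule, had 33.0, 322 and 307 CPM in the controls, against 566, 548 and 523 CPM under Ad-RNF128 (log2 change 0.64 ± 0.06, edgeR adjusted p = 7.67e-07). The adhesion molecule Vcam1 rose as well, from 4.21 and 2.58 CPM to between 9.06 and 10.2 CPM, and stood at 0.795 CPM in Ad-GFP replicate 1. Met, the receptor for hepatocyte growth factor, fell, with a log2 change of -0.86 ± 0.07, from 76.0 and 72.8 CPM to between 42.9 and 47.8 CPM, and it was at 1.65 CPM in Ad-GFP replicate 1.

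Among genes of myoblast recognition and fusion, 11 of 26 fell and 5 rose (10 and 8 with library totals alone). The median log2 change was -0.09. Cdh15, which encodes the myoblast adhesion protein M-cadherin, had 226, 423 and 420 CPM in the controls, against 145, 156 and 159 CPM under Ad-RNF128. All 3 controls were above all 3 libraries labelled Ad-RNF128, as for Myod1. Its log2 change was -1.61 ± 0.06 without Ad-GFP replicate 1 (edgeR adjusted p = 3.01e-11) and -1.73 with it (adjusted p = 0.185). Cdon, a cell surface receptor that promotes myogenesis, fell by 1.23 on the log2 scale and the Rac1 activator Trio by 0.72, and in Ad-GFP replicate 1 both were far lower still, at 1.83 and 3.12 CPM.

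Genes of the acetylcholine receptor and the endplate, the nerve contact of a muscle fibre, fell in 8 of 17 cases and rose in 5 (5 and 5 with library totals alone), with a median of -0.21. The 3 with the smallest p were Etv5, a transcription factor of endplate genes, Dnaja3, a chaperone that binds the receptor kinase MuSK, and Utrn (utrophin), which links the endplate membrane to actin. Etv5 had 33.0, 36.6 and 42.0 CPM in the controls, against 75.2, 81.0 and 79.2 CPM under Ad-RNF128 (log2 change 0.84 ± 0.08, edgeR adjusted p = 6.96e-07). Dnaja3 rose by 0.65 on the log2 scale, and its groups did not overlap over all 6 libraries. Utrn fell by 0.54 on that scale, while over all 6 libraries its log2 change was 0.01.

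The desmin network and costamere genes, which encode partners of desmin and anchors of the contractile apparatus, did not move in 1 direction. Of 26 tested, 7 rose and 8 fell, and the median log2 change was -0.13. The 57.7% called is near the 56.9% of all genes tested, so nothing is read from these counts. Cryab, a small heat shock protein that binds desmin, had 292, 176 and 176 CPM in the controls, against 122, 121 and 123 CPM under Ad-RNF128 (log2 change -0.68 ± 0.06, edgeR adjusted p = 3.21e-07). Filamin C (Flnc), an actin cross-linker, fell as well, with a log2 change of -0.77 ± 0.07. Dtna, a member of the dystrophin complex, rose (3.19 ± 0.30), from 5 and 19 reads in Ad-GFP replicates 2 and 3 to between 115 and 125 in Ad-RNF128.

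Around Ckm, 3 of 13 creatine kinase and muscle metabolic genes rose and 3 fell (4 and 2 with library totals alone), with a median of -0.22. That median was -0.07 with library totals alone and -0.0008 without Ad-RNF128 replicate 3, where 4 rose and 2 fell. The creatine transporter gene Slc6a8 had 232, 76.0 and 80.8 CPM in the controls, against 155, 160.4 and 159.7 CPM under Ad-RNF128. It rose without Ad-GFP replicate 1 (log2 change 0.86 ± 0.07, edgeR adjusted p = 8.39e-08), and over all 6 libraries the value was -0.71, which turned to 0.29 with library totals alone. Eno3, the muscle enolase, fell by 0.82 on the log2 scale, with all 3 controls above Ad-RNF128, and Pfkm, the muscle phosphofructokinase, by 0.63. Ckmt1, a mitochondrial creatine kinase chosen after its values were seen, had 0 reads in Ad-GFP replicates 2 and 3 and 10, 13 and 10 in Ad-RNF128. It was at least 7.46-fold higher than a floor of 3 counts over those 2 controls, but Ad-GFP replicate 1 had 25 reads.

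**Figure D4:**
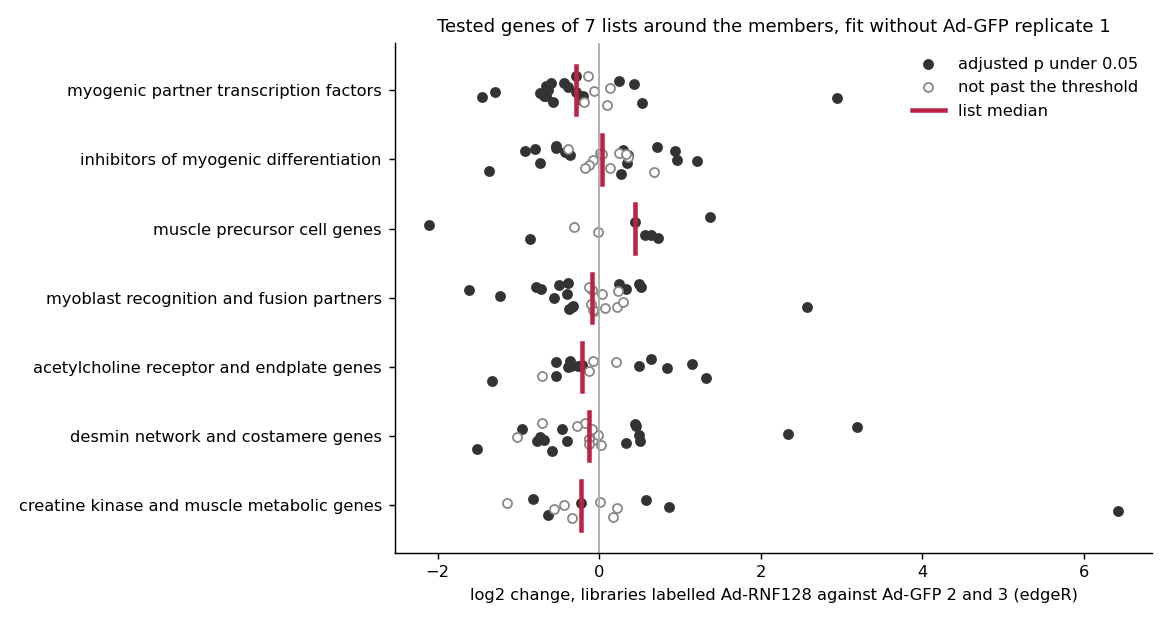
Log2 change (horizontal axis) of every tested gene of the 7 lists (rows) in the edgeR fit without Ad-GFP replicate 1, filled where the adjusted p is under 0.05, with the list median as a bar. The medians lie between -0.29 and 0.44, and the point at 6.42 is Ckmt1, whose 2 controls had no read.

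Of the 21 genes named from these lists, 7 rose and 14 fell without Ad-GFP replicate 1. In 11 of the 21 the groups also did not overlap over all 6 libraries, 6 with Ad-RNF128 higher and 5 with it lower. Of all tested genes, 30.4% and 3.59% did so. The 21 were named by their p over 5 of these 6 libraries, a choice that favours separation, so nothing is read from these counts. The sign of the log2 change was opposite over all 6 libraries for 2 of them, Utrn and Slc6a8.

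The 5 genes whose profiles lay nearest to that of Myod1 over the 6 libraries, by Euclidean distance of centred log2(CPM + 0.5) among 12035 genes with a mean of at least 1 CPM, were Atp5mc3, Ddit4, Ndufa10l1, Crip2 and Oplah. Their distances were between 0.24 and 0.31. Atp5mc3, a subunit gene of ATP synthase, had 285, 223 and 214 CPM in the controls, against 131, 145 and 131 CPM under Ad-RNF128. None of the 5 is in a list used here, and the likeness is a description of 6 points that share their libraries.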

How the data were processed

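The authors deposited counts of reads per gene, 1 table per library, and per the submitters' processing notes used HISAT2, HTSeq 0.13.5 and the build mRatBN7.2. Annotation and strand setting are not given in the sources used here. Overlapping and antisense genes cannot be told apart. The deposited column of Ad-GFP replicate 1 was treated as estimated counts because 1 value is not whole, and that value was rounded. Groups and replicate numbers come from the sample titles. CPM is a count times 1000000 over the library total (16352844 to 21708973 counts). Tests used edgeR 4.0.16 in R 4.3.3: filterByExpr, TMM, a quasi-likelihood F-test, and Benjamini-Hochberg adjustment over all genes tested with a threshold of 0.05. The SE comes from the log2 change and its F statistic. Intervals are exact at 95%, and the floor is 3 counts; both cover counting error only.

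The members and lists were chosen with earlier results of these data known. The rule for named genes takes all members, the 3 genes of each list with the smallest p without Ad-GFP replicate 1 and a mean of at least 1 CPM, the 5 genes nearest in profile to the most abundant myogenic regulatory factor, and the cell type markers. Also tried were size factors by median of ratios, library totals alone, DESeq2 1.42.0, limma-voom (limma 3.58.1), no low-count filter, a stricter one (10 counts in 3 libraries, mean CPM of 1), a replicate block, and each library left out.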

Additional observations from a re-analysis of the deposited data

How the results depend on the processing

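Over all 6 libraries the count of called genes was 0, and it was 8 with library totals only, 386 with DESeq2 and 14 with limma-voom. Leaving out 1 library gave counts from 0 to 7501, the highest without Ad-GFP replicate 1 and 0 without any of the other 5. Without Ad-GFP replicate 1 the count of 7501 stayed between 6444 and 7795 under every alternative run, and the called totals of the 7 lists, both directions together, stayed within 1.5 times. Over all 6 libraries the log2 change of Mymk (-0.96) turned to 0.15 with library totals only, 0.0208 with limma-voom, 0.14 with the replicate block and 1.26 without Ad-GFP replicate 1, and leaving out 1 library gave -1.44 to 1.26. That of Des (-0.50) turned to 0.75, 1.40, 1.59 and 2.91 under the same 4 settings. Myod1 stayed between -2.01 and -0.89 and Myog between -2.61 and -1.87. Without Ad-GFP replicate 1 the medians of the fusion (-0.09) and desmin (-0.13) lists turned to 0.0606 and 0.0283 with library totals only, the creatine median (-0.22) went to -0.0008 without Ad-RNF128 replicate 3, and Ckm (-0.29) turned to 0.16 without Ad-RNF128 replicate 3. The cause of these turns was not tested, beyond the left-out libraries themselves.

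Whether replicate numbers pair the libraries could not be told. Deviations from the group means correlated over genes at -0.17, 0.01 and -0.12 for same-numbered libraries, and between -0.15 and 0.17 for the others. Ad-GFP replicate 1 pulls the control mean away from replicates 2 and 3, so their deviations are alike. With Ad-RNF128 replicate 1, for example, these 2 controls correlated at 0.17 and 0.16. With the replicate block 0 genes were called over all 6 libraries and 7795 without Ad-GFP replicate 1, where 1 control number is missing. With it the desmin list had 7 rises and 13 falls, in place of 7 and 8, and the creatine list 3 and 6, in place of 3 and 3. With library totals only the endplate list had 5 falls in place of 8. With Mymx and Chrna1 at 3 to 9 and 0 to 13 reads a library, depth limits what can be said of them.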

Other observations

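Further genes that act on the members were picked after their values were seen. The Id genes encode proteins that bind E-proteins and so hold back the myogenic factors. Without Ad-GFP replicate 1, Id1 rose by 0.72 and Id4 by 0.93 on the log2 scale (edgeR adjusted p = 7.06e-05 and 0.00747), while Id2 (0.36) and Id3 (-0.07) did not pass. Id1 had 1539 reads in Ad-GFP replicate 1, 269 and 301 in replicates 2 and 3, and 402, 664 and 487 in Ad-RNF128, and over all 6 libraries its log2 change was -1.79. Of the MEF2 family, Mef2a (0.53) and Mef2c (0.24) rose and Mef2d (0.14) did not pass. Mef2b had 113 reads in Ad-GFP replicate 1, 5 and 4 in replicates 2 and 3, and between 33 and 42 in Ad-RNF128, the order of libraries also seen for Mymk and Des.

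Changes of endplate genes are likewise given without Ad-GFP replicate 1. Chrnb1, the beta subunit of the muscle receptor, fell by 0.53 on the log2 scale. It had 9.91 CPM in Ad-GFP replicate 1, below the 20.3, 26.9 and 25.2 CPM of Ad-RNF128, so its groups overlapped over all 6 libraries. Dok7, an activator of MuSK, fell by 1.33, with 45, 57 and 44 reads in Ad-GFP and 21, 27 and 18 in Ad-RNF128. The neuregulin receptor gene Erbb3 rose, with a log2 change of 1.32 ± 0.21. Its reads numbered 29, 31 and 37 in Ad-GFP and 97, 98 and 83 in Ad-RNF128, with no overlap. The fetal receptor gene Chrng was not analysed here, and Chrnd and Chrne had at most 9 and 6 reads in any library. Nebl, a Z-disc protein gene, rose, with 4, 10 and 7 reads in Ad-GFP against 48, 61 and 34 in Ad-RNF128. None of these genes passed over all 6 libraries.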
